A study of Mus musculus with 36 samples.

Results

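The chloride intracellular channel (CLIC) genes Clic1, Clic3, Clic4, Clic5 and Clic6 were described in RNA from mouse intestinal organoids, as 5 of the 52636 genes listed for each library. They were chosen by symbol, and Clic3 was picked for its lower level with the anti-Ptk7 antibody in Wnt5a, so that contrast is given here as a description without a test. All 5 genes had a mean level above the detection minimum of 0.5 CPM (counts scaled to a common library size) and all 5 passed the filter on low counts, as did 15497 genes in all. CLIC proteins are small soluble proteins with the fold of omega-class glutathione transferases, and some of them can insert into membranes, where they conduct anions in artificial bilayers. Inside cells they are better known for work at the actin cortex, where they meet the ezrin, radixin and moesin (ERM) linkers, and for vesicle traffic. Clic5 is a component of the actin-rich microvilli and stereocilia of epithelia, and Clic6, also named parchorin, is known from water-secreting epithelia.

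The organoids came from jejunal crypts of C57BL/6 mice. The study bought mice of more than 1 age, and which of them gave the crypts is not stated in the sources used here. They were grown in complete media (IntestiCult) with IgG, in conditioned media of quiescent (QCM) or senescent (SCM) mouse embryonic fibroblasts with IgG, in SCM with anti-Ptk7, or in complete media holding Wnt5a with IgG or with anti-Ptk7. Quiescence was induced by serum deprivation and senescence by X-rays or doxorubicin. Each of the 6 conditions had 6 libraries, numbered 1 to 6. Every library carried an antibody, either IgG or anti-Ptk7, and complete media with anti-Ptk7 was not analysed here. The crypts came from 6 mice, which carried IDs 1 to 6, but the sources do not state that a library number is the ID of a mouse, so p-values measure the spread between libraries. Passaged organoids hold epithelium only, without the stroma that surrounds crypts in the animal.

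Library totals ran from 9581589 to 21029769 counts with a median of 13490071, and scaling factors (trimmed mean of M values, TMM) from 0.908 to 1.03. All 8 epithelial markers were measured, while 7 of 8 fibroblast markers, 5 of 6 endothelial, 4 of 6 leukocyte and 4 of 4 muscle markers had a mean under 0.5 CPM. The summed level of the 8 epithelial markers, which include Krt8 and Krt19, moved with condition. It ranged from 8916 to 12046 CPM in complete media, from 12936 to 19865 CPM in SCM and from 15060 to 27680 CPM in Wnt5a with IgG. The summed level of 6 squamous markers, 4 of them under 0.5 CPM, had a median of 1.66 CPM in complete media, 9.44 CPM in SCM, 8.24 CPM in Wnt5a and 3.87 CPM in Wnt5a with anti-Ptk7. A call required a fold change over 1.5 and, over all genes tested, an adjusted p under 0.05 (edgeR quasi-likelihood test, Benjamini-Hochberg adjustment). Against complete media, 6.08% of all genes were called in SCM and 10.2% in Wnt5a with IgG, of which the genes called higher made up 4.96% and 8.29% of all genes. Tuft cell markers, summed over 6 genes, ranged from 7.40 to 13.1 CPM in complete media and from 20.6 to 36.1 CPM in Wnt5a with IgG, without overlap, and 3 of the 4 tested were called higher there. Of 8 enterocyte markers, SCM had 4 called higher and Wnt5a 3, each with 1 called lower, and of 6 Paneth cell markers 2 were called higher in each. The median log2 fold change of the Paneth cell markers was 0.21 in SCM and -0.20 in Wnt5a. Of 7 stem cell markers 1 was called lower in each, while none of the 6 goblet or 6 enteroendocrine markers was called in either. The part of these marker levels in the results below was not tested. Libraries numbered 1 stood apart for several members, as described further on. The main comparisons that rest on them are given with and without them, and correlations between genes are given with all libraries.

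All 5 members are protein-coding genes in the GENCODE annotation of GRCm38. Clic1 (ENSMUSG00000007041) lies at chr17:35049966-35058749 on the plus strand and Clic3 (ENSMUSG00000015093) at chr2:25456838-25458776 on the plus strand. Clic4 (ENSMUSG00000037242) lies at chr4:135213969-135272814 on the minus strand, Clic5 (ENSMUSG00000023959) at chr17:44188584-44280172 on the plus strand and Clic6 (ENSMUSG00000022949) at chr16:92485736-92541243 on the plus strand. The coding length of Clic1, Clic3, Clic4 and Clic5 was between 711 and 759 bases, against 1869 bases for Clic6. Clic3 is a compact gene of 1012 exonic bases that lies within the span of Paxx on the opposite strand, with 0 shared exon bases. Paxx, a DNA repair gene, had means between 6.69 and 9.40 CPM in the 6 conditions.

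RefSeq start-site windows of GRCm38.p6, 250 bases before to 50 bases after a gene's start, were found for 4 of the 5 members, and Clic6 had none. They were searched on both strands for GGAATG (the TEAD motif), for TGANTCA (the AP-1 motif) and for the CArG box of SRF, and a base may belong to more than 1 of them. These motifs are present in 14.7%, 7.81% and 1.63% of the 32851 windows. Clic1 had 1 match, to AP-1, and Clic3, Clic4 and Clic5 had none of the 3. The stretch around the Clic1 match and the bases before the Clic3 start are shown because these were the 2 members called in SCM. Capitals mark the AP-1 match, which lies 38 to 32 bases before the RefSeq start of Clic1, within exon 1 (5′ UTR) of the longer GENCODE transcript.
Clic1, chr17:35050194-35050222, plus strand: gggccggccggTGAGTCAgctgctccctg
Clic3, chr2:25456593-25456837, plus strand: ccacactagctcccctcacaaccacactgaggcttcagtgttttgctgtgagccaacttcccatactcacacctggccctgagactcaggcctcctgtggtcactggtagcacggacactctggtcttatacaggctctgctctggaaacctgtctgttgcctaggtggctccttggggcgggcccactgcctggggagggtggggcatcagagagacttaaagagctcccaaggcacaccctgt
A match describes the letters of the window and not the binding of a factor.

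Organoids expressed mainly Clic1, Clic4 and Clic6, with Clic5 and Clic3 far lower. Over the 36 libraries, Clic1 averaged 411 ± 112 CPM, Clic6 279 ± 54.9 CPM, Clic4 213 ± 56.4 CPM, Clic5 18.3 ± 5.00 CPM and Clic3 4.28 ± 3.75 CPM (SD, n = 36). Divided by the length of all exons, Clic1 led with 228 CPM per kb, followed by Clic6 with 71.3 CPM per kb and Clic4 with 32.4 CPM per kb. Divided by coding length, Clic1 again led with 568 CPM per kb, but Clic4 with 281 CPM per kb stood above Clic6 with 149 CPM per kb. Clic3 and Clic5 also changed places, at 4.23 and 2.09 CPM per kb of exon and 6.02 and 24.4 CPM per kb of coding length. According to the study's methods counting was limited to coding sequence, but this was not checked on the reads, and the order within these pairs is left as measured on each scale.

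**Figure D1:**
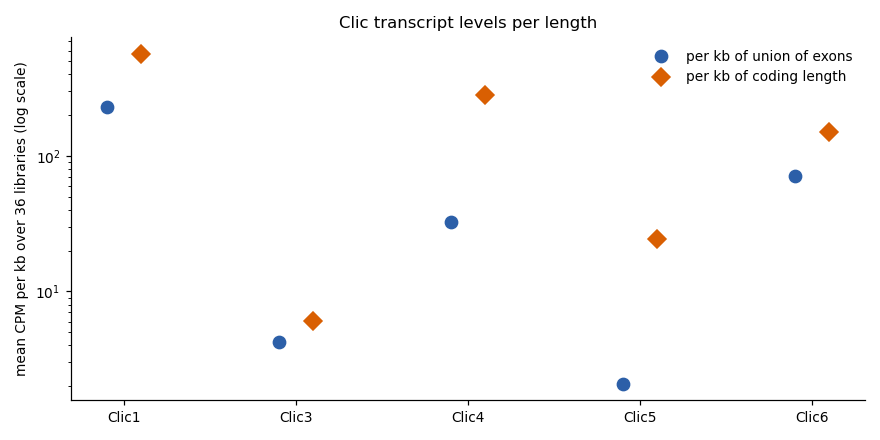
Mean level of each Clic transcript over 36 libraries, in CPM per kb on a log axis, divided by the length of all exons (circles) or by the coding length (diamonds). Clic1 is highest on both scales, at 228 and 568 CPM per kb, while Clic4 and Clic6 change places.

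Clic1 and Clic3 were higher in organoids exposed to SCM than in complete media, and the other 3 members did not pass the test. By the rule for a call, 2 of 5 members were called in SCM against complete media, both higher, where 6.08% of all genes tested were called and 4.96% were called higher. The median log2 fold change was 0.45 over the 5 members and 0.0068 over all genes tested. Clic3, among the 2 called, was picked with earlier results of these libraries known, and apart from it only Clic1 was called. The share of members called and their median are therefore a description, and not independent evidence of a difference of the family from all genes. In bulk RNA, a change in the number of cells of a type and a change of RNA per cell cannot be told apart.

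Clic1, a cytosolic and nuclear CLIC protein abundant in many epithelia, had the highest mean level of the family over the 36 libraries. In complete media the mean of Clic6 was higher, at 305 against 298 CPM. There the level of Clic1 ran from 266 to 344 CPM with a median of 293 CPM. In QCM it ran from 331 to 404 CPM with a median of 340 CPM, and in SCM from 386 to 634 CPM with a median of 441 CPM. All 6 SCM libraries lay above the highest complete media library, a separation that 3.76% of genes tested showed in this direction. The log2 fold change of SCM against complete media was 0.66 (SE 0.145, 95% interval 0.37 to 0.96, edgeR adjusted p = 0.00199). Without SCM library 1 it was 0.55 (adjusted p = 0.0157), which is below the fold cutoff. It was 0.61 (adjusted p = 9.87e-05) with all 6 libraries numbered 1 left out, and 0.55 (adjusted p = 1.84e-05) with those numbered 5 left out too.

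In Wnt5a with IgG, Clic1 ran from 402 to 692 CPM with a median of 466 CPM, again with all 6 libraries above the highest in complete media. Such a separation was seen in 6.85% of genes tested. The log2 fold change was 0.74 (SE 0.145, 95% interval 0.45 to 1.04, adjusted p = 0.000302). Without all libraries numbered 1 it was 0.67 (adjusted p = 1.75e-05), and with those numbered 5 left out too it was 0.67 (adjusted p = 8.62e-07). Clic1 was the 1 member called of the 4 tested in this comparison, in which 10.2% of all genes were called and 8.29% were called higher. Clic1 remained high when anti-Ptk7 was added to Wnt5a, with a range of 364 to 759 CPM, a median of 416 CPM and a log2 fold change of 0.69 against complete media (SE 0.145, adjusted p = 0.000376). Library 1 held the highest Clic1 level with the antibody, and the next library was at 523 CPM. Both Wnt5a comparisons share the complete media libraries with the SCM comparison.

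Clic3 was the member with the largest relative differences and the lowest counts. Clic3 is known from late endosomes, where it acts in the recycling of integrins, and as a secreted protein. Its counts per library ran from 1 to 246, and complete media libraries 3 and 4 held 1 and 2 counts. In complete media its level ran from 0.0834 to 3.13 CPM with a median of 1.71 CPM. In QCM it ran from 1.58 to 4.85 CPM with a median of 1.83 CPM. In SCM the range was wide, from 1.22 to 16.02 CPM with a median of 5.81 CPM.

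SCM libraries overlapped complete media for Clic3, since SCM library 3 was low, while the other 5 lay above the highest complete media library. The log2 fold change was 2.18 (SE 0.534, 95% interval 1.09 to 3.26, adjusted p = 0.00572). Clic3 was chosen with earlier results of these libraries known, so this test is not independent evidence for it. The log2 fold change was lowest without SCM library 1, at 1.73 (adjusted p = 0.0370), and it was 2.05 (adjusted p = 0.0120) without the 6 libraries numbered 1. A test against the fold cutoff itself (edgeR glmTreat) gave Clic3 an adjusted p of 0.0565 and Clic1 an adjusted p of 1, so neither passed that stricter test.

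The Wnt5a libraries served to pick Clic3, and its values there are a description. In Wnt5a with IgG, Clic3 ran from 7.02 to 15.3 CPM with a median of 8.01 CPM. In Wnt5a with anti-Ptk7 it ran from 0.423 to 4.51 CPM with a median of 2.42 CPM. All 6 libraries with the antibody lay below the lowest without it, a separation that 1.43% of genes showed in this direction, and 0.884% of genes were called in this contrast. The log2 difference was -1.91, and without library 1 in all conditions it was -1.96. With the antibody, the 6 Clic3 levels lay within the span of complete media and QCM, which was 0.0834 to 4.85 CPM. The squamous markers had medians of 8.24 and 3.87 CPM in the same conditions, and the summed Paneth cell markers had medians of 1610 and 1099 CPM. The summed enteroendocrine markers had medians of 696 and 611 CPM. With the antibody 1 of 8 enterocyte, 1 of 6 Paneth cell and 1 of 6 enteroendocrine markers were called lower. Their part in the Clic3 difference was not tested.

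**Figure D2:**
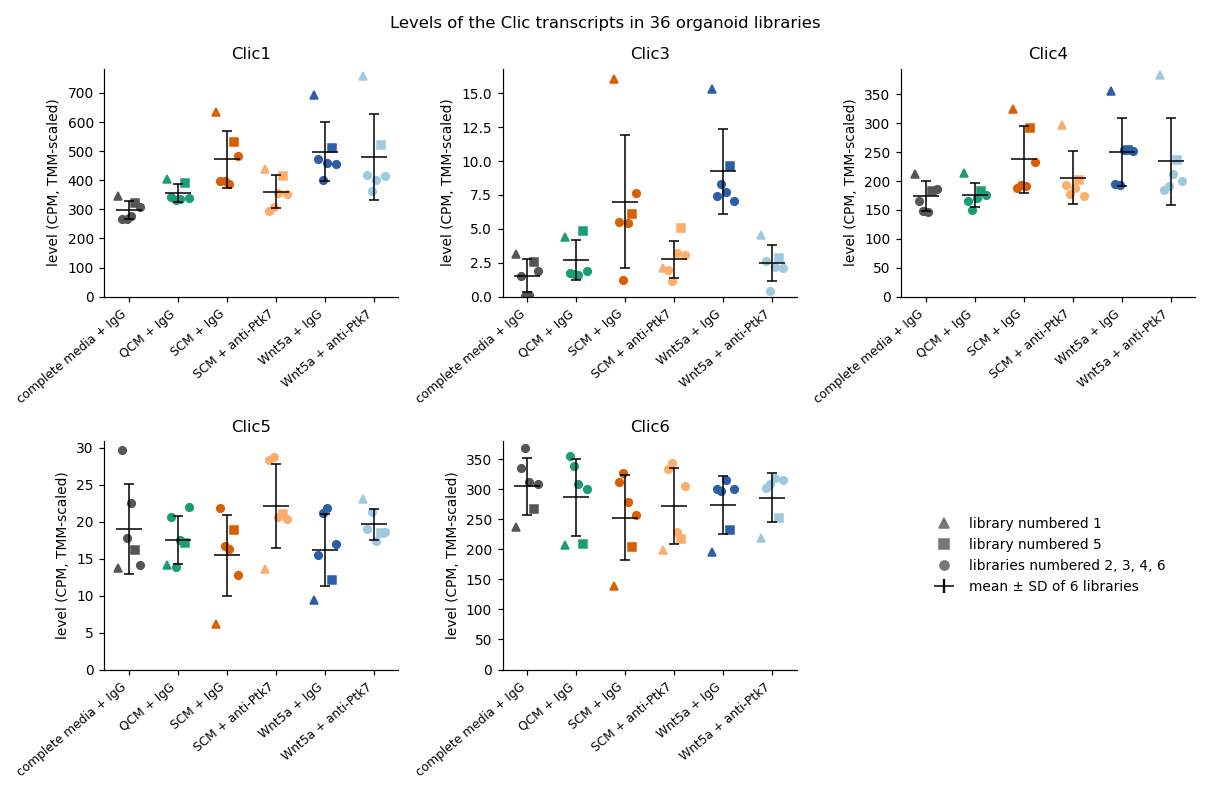
Level of each Clic transcript in CPM in 36 libraries, by condition, with the mean ± SD of 6 libraries. Triangles mark libraries numbered 1 and squares those numbered 5. Clic1 in SCM (386 to 634 CPM) and in Wnt5a with IgG (402 to 692 CPM) lies above complete media (266 to 344 CPM), and Clic3 is lower in Wnt5a with anti-Ptk7 than in Wnt5a with IgG.

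The antibody was also added to SCM, a contrast that the rule for picking Clic3 did not use. Earlier results of these libraries were known when Clic3 was chosen, so this test too is not independent evidence. With the antibody in SCM, Clic3 ran from 1.14 to 5.03 CPM with a median of 2.58 CPM, against a median of 5.81 CPM with IgG. The groups overlapped, with 1 of 6 antibody libraries below the lowest SCM library. The log2 difference was -1.35 (SE 0.507, 95% interval -2.38 to -0.33) and did not pass the test (adjusted p = 0.148). It was -0.92 (adjusted p = 0.442) without SCM library 1 and -0.86 (adjusted p = 0.438) without the 6 libraries numbered 1. The difference between the Clic3 antibody effects in Wnt5a and in SCM was -0.55 on the log2 scale, and it was not tested because it holds the contrast that picked the gene.

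No member was called with anti-Ptk7 in SCM (0 of 5 in edgeR, voom with limma and DESeq2), where 1.23% of genes were called. In the same contrast 2 of 6 enteroendocrine markers and 1 of 8 enterocyte markers were called lower. The median summed level of the Paneth cell markers was 2031 CPM with IgG and 1542 CPM with the antibody, and that of the squamous markers 9.44 and 6.29 CPM. Their part in the member differences was not tested. Clic1, Clic3 and Clic5 had an unadjusted p under 0.05. Clic1 had a log2 difference of -0.39 (95% interval -0.68 to -0.09, adjusted p = 0.146; -0.37 and 0.0466 without libraries numbered 1, below the fold cutoff) and Clic5 of 0.52 (95% interval 0.06 to 0.97, adjusted p = 0.222). Clic4 and Clic6 had log2 differences of -0.21 (95% interval -0.55 to 0.13) and 0.10 (95% interval -0.24 to 0.45). In Wnt5a, the antibody went with log2 differences of -0.06 for Clic1, -0.10 for Clic4, 0.27 for Clic5 and 0.06 for Clic6, given without a test. The antibody effects in Wnt5a and SCM were not shown to differ for Clic1, Clic4, Clic5 or Clic6 (adjusted p = 0.999 for each). In that test 0% of all genes tested were called by edgeR, voom with limma or DESeq2, and 602 had an unadjusted p under 0.05.

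The 95% interval of the difference between the 2 antibody effects was -0.08 to 0.75 on the log2 scale for Clic1 and -0.37 to 0.59 for Clic4. It was -0.89 to 0.40 for Clic5 and -0.53 to 0.45 for Clic6.

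Clic4, which shuttles between cytoplasm and nucleus and acts in tube formation of endothelium, followed Clic1 at a lower level. It ran from 146 to 213 CPM with a median of 174 CPM in complete media, from 187 to 325 CPM with a median of 214 CPM in SCM, and from 194 to 356 CPM with a median of 253 CPM in Wnt5a with IgG. These groups overlapped complete media, with 3 of 6 SCM libraries and 4 of 6 Wnt5a libraries above its highest. In SCM the log2 fold change was 0.45 (SE 0.167, adjusted p = 0.0736), which did not pass the test. Without libraries numbered 1 it was 0.41 (adjusted p = 0.0118), below the fold cutoff. In Wnt5a it was 0.53 (SE 0.167, adjusted p = 0.0203), a fold of 1.44 that missed the cutoff of 1.5. At any fold, 21.8% of genes passed in that comparison. Clic4 passed both cutoffs without complete media library 1 (log2 0.61), without Wnt5a library 2 (log2 0.59) or without Wnt5a library 3 (log2 0.61). With 1 library left out its log2 fold change ranged from 0.40 to 0.61, and without all libraries numbered 1 it was 0.47, below the fold cutoff. Wnt5a library 1, at 356 CPM, lay far above the next library at 254 CPM.

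Clic5 and Clic6 had lower means in SCM and Wnt5a than in complete media, and neither was called. Clic5 ran from 13.8 to 29.7 CPM in complete media, from 6.19 to 21.9 CPM in SCM and from 9.45 to 21.9 CPM in Wnt5a with IgG. Its log2 fold changes against complete media were -0.30 in SCM (95% interval -0.76 to 0.16, adjusted p = 0.445) and -0.23 in Wnt5a (95% interval -0.68 to 0.23, adjusted p = 0.523). Clic6 ran from 237 to 368 CPM in complete media, from 139 to 327 CPM in SCM and from 196 to 316 CPM in Wnt5a with IgG. Its log2 fold changes were -0.27 in SCM (95% interval -0.62 to 0.08, adjusted p = 0.348) and -0.16 in Wnt5a (95% interval -0.50 to 0.19, adjusted p = 0.578). Both intervals of Clic6 lie within a 2-fold change, but the one in SCM reaches past the cutoff of 1.5-fold. With 1 library left out, the values of Clic5 ranged from -0.44 to -0.14 in SCM and from -0.35 to -0.07 in Wnt5a, and those of Clic6 from -0.36 to -0.16 and from -0.21 to -0.08. SCM library 1 was the lowest in SCM for both genes, and without it their values in SCM were -0.14 and -0.16. Set against the complete media library of the same number, Clic6 was lower in SCM in 6 of 6 numbers and in Wnt5a in 5 of 6. Of all genes tested, 8.19% were lower in 6 of 6 numbers in SCM and 25.7% in at least 5 of 6 in Wnt5a. Clic5 was lower in 5 of 6 in SCM and 4 of 6 in Wnt5a, and 21.6% and 41.8% of genes were lower in at least as many. With the library number as a replicate block, Clic6 in SCM had a log2 fold change of -0.30 (SE 0.0788, adjusted p = 0.00587), below the fold cutoff.

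QCM is the control for conditioned media as such. Against complete media, 0 of 5 members were called in QCM by edgeR, voom with limma or DESeq2, none had an unadjusted p under 0.05, and 0.374% of genes were called. The largest difference was that of Clic3, with a log2 fold change of 0.80 (95% interval -0.29 to 1.89, adjusted p = 0.588). Clic1 followed with 0.26 (95% interval -0.03 to 0.55, adjusted p = 0.482).

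SCM against QCM compares conditioned media of the same fibroblasts in the 2 states. Here too 0 of 5 members were called by edgeR, voom with limma or DESeq2, in a comparison that called 0.903% of genes, although 3 members had an unadjusted p under 0.05. Clic3 had a log2 fold change of 1.38 (95% interval 0.35 to 2.40, adjusted p = 0.145), with 5 of 6 SCM libraries above the highest QCM library and 1 below the lowest. It was 1.12 (adjusted p = 0.257) without libraries numbered 1. With the library number as a replicate block, Clic3 was called in this comparison, with a log2 fold change of 1.26 (SE 0.374, adjusted p = 0.031). Clic1 had 0.40 (95% interval 0.11 to 0.70, adjusted p = 0.135) and Clic4 had 0.43 (95% interval 0.09 to 0.77, adjusted p = 0.167), each with 3 of 6 SCM libraries above the highest QCM library. Wnt5a with IgG against SCM with IgG gave 0 of 4 members called by edgeR, voom with limma or DESeq2 and none with an unadjusted p under 0.05, where 0.69% of genes were called.

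**Figure D3:**
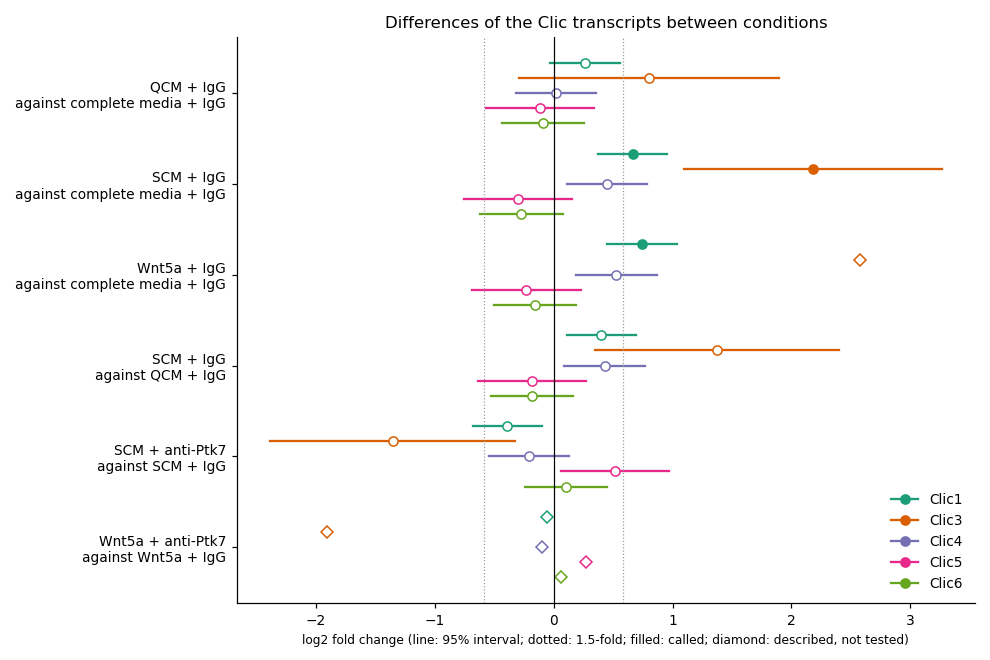
Log2 fold changes of the 5 Clic transcripts in 6 comparisons, with 95% intervals for those tested, and dotted lines at 1.5-fold. Filled circles were called: Clic1 (0.66) and Clic3 (2.18) in SCM and Clic1 (0.74) in Wnt5a with IgG against complete media. Diamonds are described without a test, among them Clic3 with anti-Ptk7 in Wnt5a (-1.91).

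Ordered by mean level, Clic1 rose from complete media (298 CPM) through QCM (357 CPM), SCM with anti-Ptk7 (361 CPM), SCM (472 CPM) and Wnt5a with anti-Ptk7 (480 CPM) to Wnt5a with IgG (499 CPM). Clic4 had the same first 3 places and the same last one, from 174 to 251 CPM. For Clic5 and Clic6 the order was different, with SCM with IgG lowest at 15.5 and 253 CPM. Clic5 was highest in SCM with anti-Ptk7 at 22.1 CPM and Clic6 in complete media at 305 CPM. Neighbours in these 4 orders were not told apart by the test, with adjusted p from 0.146 to 0.996, and the 2 Wnt5a conditions were not tested against each other. For Clic3 the order, given as a description, ran from complete media (1.56 CPM) through Wnt5a with anti-Ptk7 (2.46 CPM), QCM (2.69 CPM), SCM with anti-Ptk7 (2.74 CPM) and SCM (6.99 CPM) to Wnt5a with IgG (9.23 CPM).

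Within conditions, the Clic transcripts went with the library number, and Clic6 did so more than nearly any other gene. Of the sum of squares of its log2 CPM over the 36 libraries, 76.4% went with the library number and 9.65% with the condition. For the median gene these shares were 13.98% and 29.3%. Only 3 of the 15497 genes tested had a larger share for the number than Clic6. For Clic4 the shares were 53.2% for the number and 34.6% for the condition, and for Clic5 they were 35.6% and 20.1%. Clic1 and Clic3 had more with condition, at 56.1% and 51.6%, than with number, at 35.4% and 28.9%. The 36 libraries include those of Wnt5a that served to pick Clic3, so its share for condition is not independent of that choice.

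**Figure D4:**
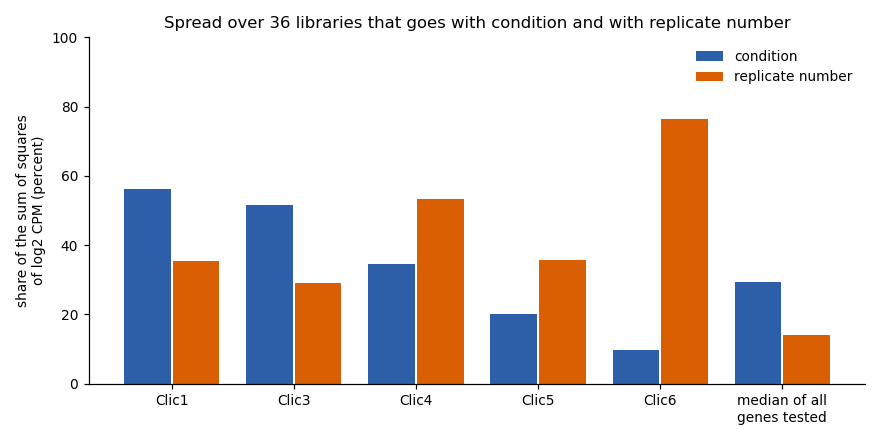
Percent of the sum of squares of log2 CPM over 36 libraries that goes with condition (blue) and with the library number (orange), for each Clic transcript and for the median of all genes tested. Clic6 has 76.4% with the number and 9.65% with the condition, against 13.98% and 29.3% for the median gene.

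The direction was opposite for Clic6 and for Clic1 with Clic4. Library 1 had the highest Clic1 level and the highest Clic4 level of its condition in 6 of 6 conditions, and the lowest Clic6 level in 6 of 6. Library 5 was among the upper 2 for Clic1 and among the lower 2 for Clic6 in 6 of 6 conditions. Clic6 lay between 139 and 237 CPM in libraries numbered 1 and between 203 and 267 CPM in those numbered 5. It lay between 300 and 355 CPM in libraries numbered 2 and between 298 and 368 CPM in those numbered 3, so these did not overlap libraries 1 and 5 in any condition. Clic5 was lowest in library 1 in 4 of 6 conditions but highest there in Wnt5a with anti-Ptk7. Clic3 was highest in library 1 in 4 of 6 conditions and in library 5 in the other 2, and lowest in library 3 in 4 of 6.

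**Figure D5:**
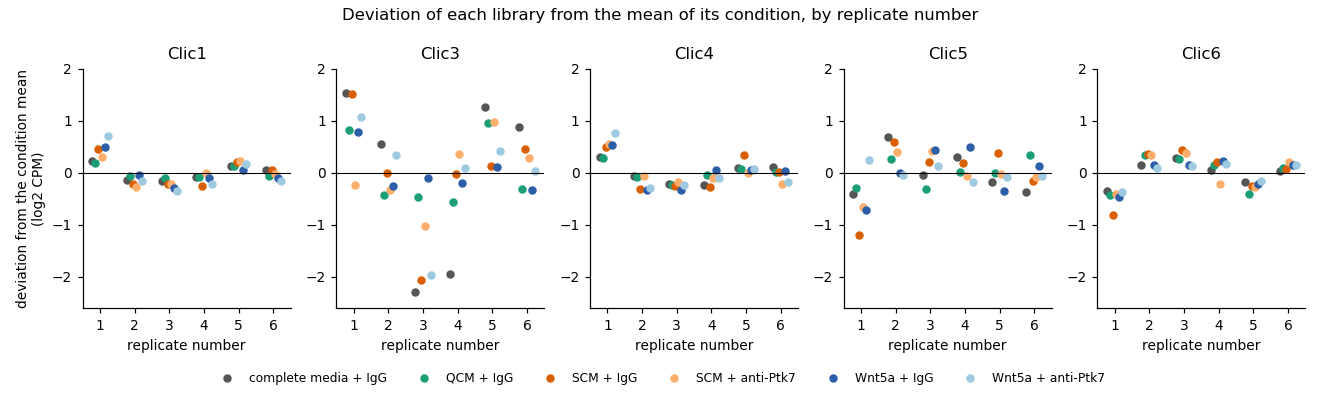
Deviation of each library from the mean log2 CPM of its condition, by library number, with 1 point for each condition. Clic1 and Clic4 lie above 0 in all 6 conditions for libraries numbered 1, where Clic6 lies below 0 in all 6.

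Libraries of the same number were also set side by side, as a description without a test. Clic1, Clic3 and Clic4 were each higher in SCM than in complete media in 6 of 6 numbers, as were 10.7% of all genes tested. Clic1 and Clic4 were higher in Wnt5a with IgG in 6 of 6, as were 13.9% of genes. Against QCM, SCM was higher in 6 of 6 numbers for Clic1 and Clic4, as for 6.21% of genes, and in 5 of 6 for Clic3. With anti-Ptk7 in SCM, Clic1 and Clic3 were lower in 6 of 6 numbers, as were 5.78% of genes, and Clic5 was higher in 6 of 6, as were 5.27%. Clic4 was lower there in 5 of 6 and Clic6 higher in 5 of 6.

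The members paired off accordingly, which is given as a description over 36 libraries that share conditions and numbers. Pearson's r of log2 CPM was 0.90 between Clic1 and Clic4 and 0.63 between Clic5 and Clic6. It was -0.67 between Clic1 and Clic6 and -0.72 between Clic4 and Clic6. Taken as deviations from the condition means, r was 0.90 for Clic1 with Clic4, -0.85 for Clic1 with Clic6 and -0.79 for Clic4 with Clic6. The pattern between members was therefore also present within conditions. These r values include libraries numbered 1, which were highest for Clic1 and Clic4 and lowest for Clic6 in every condition. Clic3 stood with Clic1, at 0.73 overall and 0.63 as deviations.

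The 5 genes most like each member over the 36 libraries were taken by Pearson's r of log2 CPM, again as a description. For Clic1 these were the simple-epithelium keratin Krt19 (r = 0.97), Prr13, the keratin Krt8, the membrane-binding annexin Anxa2 and the transcription factor Klf6, all at 0.96. For Clic4 they were the sulfite oxidase Suox (0.93), the unconventional myosin Myo1c (0.93), Lmo7, the small GTPase Rhof and Prr13, the last 3 at 0.92. Prr13 was on both lists, but on neither by Spearman's rank correlation. For Clic3 they were Tnfrsf12a, the receptor of the cytokine TWEAK (0.86), Wfdc2 (0.84), the basement membrane collagen Col4a1 (0.83), the protease inhibitor Cstb (0.83) and the annexin Anxa1 (0.83).

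For Clic5 the 5 genes were the glucose transporter Slc2a2 (0.81), the butyrophilin-like Btnl4 (0.78), the carbamoyl phosphate synthase Cps1 (0.77), Fam13a (0.75) and the Frizzled receptor Fzd4 (0.75). For Clic6 they included the transcriptional repressor Tgif2 (0.89), the sodium-glucose cotransporter Slc5a1 (0.86), the phospholipase Plch2 (0.86) and the xylulokinase Xylb (0.86). By Spearman's rank correlation, 3, 2, 0, 3 and 3 of the 5 genes stayed among the 5 for Clic1, Clic3, Clic4, Clic5 and Clic6. The list of Clic4 in particular therefore depends on that measure. With a prior count of 0.5 in place of 2, 3 of the 5 Clic3 genes stayed, without Cstb and Anxa1, and the other lists kept their genes.

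Relatives and partners of the CLIC proteins were looked up from a list of 27 genes, of which 25 were tested. The list was chosen with earlier results of these data known, so its shares are a description and not independent evidence. In SCM against complete media 2 of 25 were called higher, where 4.96% of all genes were, and 0 lower. The ERM linker moesin (Msn) had a mean of 8.63 CPM in SCM and 1.09 CPM in complete media (log2 fold change 2.98, SE 0.586, adjusted p = 0.000705). Tgfb1, the cytokine whose receptor signalling meets nuclear Clic4, had 3.52 and 1.19 CPM (log2 1.55, SE 0.322, adjusted p = 0.00123). In Wnt5a with IgG 8 of 25 were called higher, where 8.29% of all genes were, and 0 lower. Msn had 34.3 CPM (log2 4.97, SE 0.601, adjusted p = 2.9e-07) and Tgfb1 7.50 CPM (log2 2.64, SE 0.321, adjusted p = 3.42e-07). Mmp14, a membrane protease that Clic3 helps recycle, had a log2 fold change of 1.05 (adjusted p = 0.00494) and the ERM-binding sialomucin Podxl of 1.03 (adjusted p = 0.0037). Msn and Tgfb1 were also called higher in Wnt5a than in SCM, by log2 1.99 (adjusted p = 0.0273) and 1.09 (adjusted p = 0.0365).

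Within this list, the 1 relative by fold that was tested was not called, and the groups that held calls were the ERM and actin partners (3 of 10 in Wnt5a), the Clic3 recycling and matrix partners (2 of 7) and the Clic4 partners of the TGF-beta pathway (3 of 7). Over all genes tested, 8.29% were called higher in Wnt5a. The median log2 fold changes of the 3 groups were 0.29, 0.51 and 0.19, against 0.0051 over all genes tested. With anti-Ptk7, 1 of 25 partners was called in each medium, where 1.23% of all genes were called in SCM and 0.884% in Wnt5a, and it was Tgm2, a transglutaminase on which secreted Clic3 acts. Tgm2 was higher with the antibody, by log2 0.70 in SCM (SE 0.144, adjusted p = 0.00536) and by log2 0.82 in Wnt5a (SE 0.144, adjusted p = 0.00117). Its means were 56.7 CPM in SCM with IgG and 91.9 CPM with the antibody, and 54.7 and 96.9 CPM in Wnt5a.

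Other chloride channels were looked up from a list of 28 genes, of which 21 were tested. This list too was chosen with earlier results of these data known, and its shares are a description. In SCM against complete media 1 of 21 was called, where 6.08% of all genes were, a share no higher than that of all genes. It was the calcium-activated channel Ano1, with 182 against 50.2 CPM (log2 1.86, SE 0.321, adjusted p = 0.00014). Ano1 was also the 1 channel called in SCM against QCM (log2 1.32, adjusted p = 0.0252), where 0.903% of all genes were called. In Wnt5a with IgG 3 of 21 were called higher, against 8.29% of all genes, namely Ano1 at 283 CPM (log2 2.49, adjusted p = 1.05e-06), the volume-regulated anion channel subunit Lrrc8a (log2 1.14, adjusted p = 0.00375) and the endosomal exchanger Clcn5 (log2 0.87, adjusted p = 0.00129). The late-endosomal exchanger Clcn6 was called lower, with 5.60 against 10.1 CPM (log2 -0.86, adjusted p = 0.0325). With the antibody the 1 channel of 21 called was Ano9, in Wnt5a (log2 0.60, adjusted p = 0.00554), where 0.884% of all genes were called. The median log2 fold change in Wnt5a was 0.11 for the group of Cftr, anoctamins and bestrophins, 0.064 for the Clcn genes and 0.13 for the volume-regulated and acid-activated channels, against 0.0051 over all genes tested.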

How the data were processed

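Organoid RNA was made into cDNA from 2 ng of total RNA (Smart-Seq V4) and into libraries from 150 pg of cDNA (Nextera XT). The authors aligned reads with HTSeqGenie and GSNAP to the mouse genome (mm10) and deposited unnormalized counts per gene. The annotation and the use of strand in counting are not given in the sources used here. Libraries were grouped by their labels, 6 for each of 6 conditions.

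Counts were filtered with filterByExpr, scaled by TMM and tested in 1 edgeR quasi-likelihood fit of 6 condition means (R 4.3.3, edgeR 4.0.16). Calls needed a fold over 1.5 and an adjusted p under 0.05 (Benjamini-Hochberg over 15497 genes). CPM are TMM-scaled, and log2 CPM has a prior count of 2. The study's voom with limma (3.58.1) and DESeq2 (1.42.0), other scalings, filters and cutoffs, a replicate block and leaving out libraries were alternatives. Tested on simulated data of SCM against complete media with 200 of 15259 genes changed, the fit recovered 151 with 8 false calls. Members and lists were chosen with earlier results of these data known. The named genes are the members, the 5 genes most like each, and called genes of the partner and channel lists, up to 4 per comparison. One gene of the list of Clic6 is not reported here. Names and positions come from GENCODE M21 and sequences from RefSeq. Clic3 had from 1 to 246 counts per library, so counting error adds to the spread between libraries where its counts are low.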

Additional observations from a re-analysis of the deposited data

Results flagged for a closer look

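Of 30 groups of 6 libraries, 1 for each member in each condition, 4 held a library farther from the others than Dixon's 95% critical value of 0.625 allows. Chance gives about 1 in 20 for separate groups, but these 30 share library numbers and members that vary together, so that rate is no measure of how unusual 4 is. All 4 were the library numbered 1 and all 4 lay above the rest. Clic4 stood at 297 CPM in SCM with anti-Ptk7, next to 201 CPM. Clic4 stood at 356 CPM in Wnt5a with IgG, next to 254 CPM, and at 383 CPM in Wnt5a with anti-Ptk7, next to 237 CPM. Clic3 stood at 15.3 CPM in Wnt5a with IgG, next to 9.63 CPM, in libraries that served to pick Clic3.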

How the results depend on the processing

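Of 876 values of 32 member comparisons under alternatives, 840 kept direction and side of the threshold, 7 lost the call, 5 gained it and 24 changed sign, each of the last near 0 and not called. In SCM against complete media 2 members were called, 1 with at least 10 counts in every library (Clic3 then goes untested), 1 at a fold over 2, 0 with glmTreat, and between 1 and 2 with 1 library left out. In Wnt5a with IgG 1 member was called, 0 with glmTreat (Clic1 adjusted p = 0.602) or a fold over 2, 2 without a fold cutoff, and between 1 and 2 with 1 library left out. Leaving out all libraries numbered 1, or 1 and 5, was chosen after seeing the data, and with 1 and 5 left out 1 member was called in SCM. The cutoffs move calls by construction, and the cause of the changes with libraries left out was not tested.

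Library numbers were not accepted as pairs, since 34 of 90 same-number pairs of libraries had deviations correlated above 0.1 (mean 0.092, against -0.018 for other pairs) and 16 of 36 libraries correlated best with their own number. With the number as a replicate block, 1 member was called in SCM against QCM in place of 0, Clic3 at log2 1.26 (adjusted p = 0.031), and no other member call changed. Pairing was judged over all genes, whereas for the members 28.9% to 76.4% of the sum of squares went with the number. Intervals without the block include that spread. The SE of Clic6 in SCM against complete media was 0.171 without the block and 0.0788 with the block.

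Over all genes, calls moved by over 1.5 times as follows. With glmTreat, the calls fell from 58 to 2 in QCM and from 942 to 210 in SCM against complete media, from 1576 to 491 in Wnt5a, from 140 to 4 in SCM against QCM, from 107 to 1 in Wnt5a against SCM, and with the antibody from 190 to 12 in SCM and from 137 to 2 in Wnt5a. With the block they were 178 in QCM, 496 in SCM against QCM, 259 in Wnt5a against SCM, 399 and 255 with the antibody in SCM and in Wnt5a, and 3 in place of 0 for the difference of antibody effects. DESeq2 called 264 in SCM against QCM and 295 with the antibody in SCM. A fit of the compared groups alone called 265 in SCM against QCM, 51 in Wnt5a against SCM and 86 with the antibody in SCM. Without libraries 1, or 1 and 5, the calls were 123 and 89 in QCM, 278 and 343 in SCM against QCM, and 32 and 17 in Wnt5a against SCM.

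Sign changes were as follows, in log2. Clic4 in QCM against complete media was -0.0036 by library size alone, -0.0032 without libraries 1 and 5, and -0.041 to 0.067 with 1 library left out, where Clic5 was -0.21 to 0.037. In Wnt5a against SCM with IgG, Clic1 was -0.030 to 0.19, Clic4 -0.042 to 0.20 and Clic5 -0.084 to 0.20, and with anti-Ptk7 in SCM Clic6 was -0.021 to 0.19. The difference of antibody effects was -0.087 to 0.25 for Clic4 (-0.054 without libraries 1 and 5) and -0.13 to 0.078 for Clic6 (0.013 without libraries 1). The Clic3 difference with anti-Ptk7 in Wnt5a was -2.16 to -1.70 with 1 library left out.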

Other observations

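Clic4, Clic5 and Clic6 each have a Runx gene and an Rcan gene close by, a neighbourhood picked after its values were seen. Runx genes encode transcription factors and Rcan genes encode regulators of calcineurin. Runx1 lies 60223 bases and Rcan1 14869 bases from Clic6, Runx3 35979 and Rcan3 139494 bases from Clic4, and Runx2 215815 and Rcan2 149068 bases from Clic5. Runx1 had means of 20.6 CPM in complete media, 48.3 CPM in SCM (log2 fold change 1.23, edgeR adjusted p = 0.00199) and 62.7 CPM in Wnt5a with IgG (log2 1.60, adjusted p = 5.13e-05). Its neighbour Clic6 was not called in either comparison, at log2 -0.27 and -0.16. Rcan3 had 11.1, 24.2 and 33.04 CPM in the same conditions (log2 1.12, adjusted p = 0.00387, and log2 1.57, adjusted p = 5.13e-05). Rcan1 had log2 0.22 (adjusted p = 0.383) and 0.45 (adjusted p = 0.0217), the latter below the fold cutoff. Runx2 was low, at 0.378 CPM in complete media, which is under the minimum of 0.5 CPM with at least 1 library at 0 counts. It had 1.91 CPM in SCM (log2 2.27, adjusted p = 0.0531, not called) and 2.70 CPM in Wnt5a (log2 2.77, adjusted p = 0.0101). Runx3 had at most 2 counts and Rcan2 at most 12 counts in any library.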
